A study of Mus musculus with 14 samples.

Results

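In mouse embryonic hippocampus, 35 genes of the postsynaptic density and of the network around ARC were followed. They were listed by function, with earlier results of these data known, and 5 of them are genes that the study lists as changed in the same samples. The list held 4 DLG and 4 DLGAP scaffolds, 6 SHANK and HOMER scaffolds, and 5 genes of calcium/calmodulin-dependent kinase II and its calmodulin store. It also held Arc and Gda, 8 regulators of small GTPases and actin, and 6 adhesion molecules. All 35 were found among the 59796 loci of the deposited gene table, and 34 had a row of their own. Nlgn3 shared its assembled locus with Med12 and was read from its isoform.

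The study compared 2 mouse models of Down syndrome. RNA was taken from hippocampi of embryos between embryonic days 16 and 18. The first model, 189N3, carried an extra copy of the Dyrk1a gene, and 3 libraries were compared with 3 of wild-type littermates. The second, Dp(16)1Yey/+, carried an extra copy of the mouse chromosome 16 region that is syntenic to human chromosome 21, and 4 libraries were compared with 4 of wild-type littermates. The methods describe crosses of heterozygous mice to C57BL6 for the neuron cultures and name no cross for the sequenced embryos. The labels name no treatment. The methods report genotyped embryos, with an n per genotype of 3 for 189N3 and 4 for Dp(16)1Yey, the same as the numbers of libraries. They do not state that each library was a single embryo. The p-values therefore measure the spread between libraries, part of which may be technical. All tissue was bulk hippocampus, in which fewer cells of a type and less RNA per cell cannot be told apart.

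The postsynaptic density is the protein mesh beneath the membrane of excitatory synapses. DLG proteins hold glutamate receptors and adhesion molecules, DLGAP proteins tie DLG to SHANK, and SHANK and HOMER tie that layer to actin and to metabotropic receptors. ARC is made on synaptic activity and removes AMPA-type glutamate receptors from the membrane. Hippocampal synapses form mostly after birth, so the embryonic tissue is sampled while many of these genes are still rising.

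Libraries held between 20809135 and 29098454 fragments. Values are fragment numbers scaled by a size factor for each library, here called normalized values, and 1 fragment was worth between 0.816 and 1.21. Dyrk1a, the gene added in 189N3, lay between 3938 and 5877 in 189N3 and between 2126 and 2977 in its littermates. Over 53 loci of the duplicated chromosome 16 region, the median ratio to the littermate mean was 1.63, 1.44 and 1.32 in Dp(16)1Yey/+ replicates 0, 2 and 3 but 1.10 in the library labelled Dp(16)1Yey/+ replicate 1. In 189N3, whose added copy is of the Dyrk1a locus, the same ratio was 0.94, 0.93 and 1.27 in replicates 0 to 2, so 1 library without the duplication came close to the lowest of the former 3. Among the littermates of Dp(16)1Yey/+, replicates 0 and 1 were nearly alike, as were 2 and 3. Their squared differences were 1.65 and 2.0 times counting noise in the median locus, against 31.3 to 36.3 times between the pairs. All other pairs within a group were between 8.93 and 109.5 times. Both pairs exceeded counting noise and were kept as 4 libraries, but whether each pair came from 1 embryo or RNA is not given in the sources used here, so that SDs and p-values over these 4 may rest on as few as 2 independent samples. Dlg1 and Kalrn lie on chromosome 16 but outside the duplicated region, so no listed gene gained a copy.

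In wild-type hippocampus the listed genes covered a wide range of levels. Per kilobase of exon, the row of Lrrtm1, a neurexin-binding adhesion molecule, was the highest at 1643 ± 123 (SD, n = 3) in littermates of 189N3 and 1716 ± 207 (SD, n = 4) in littermates of Dp(16)1Yey/+. Arc was the lowest in both, at 9.49 ± 2.52 (SD, n = 3) and 20.46 ± 2.74 (SD, n = 4) per kilobase. Its normalized value lay between 17.8 and 72.8 in every library. The row of Lrrtm1 sums 5 assembled forms, of which those named Lrrtm1 had estimated means of 278, 255 and 272 in littermates of 189N3. The row mean there was 4174. In littermates of Dp(16)1Yey/+ the named forms had 439, 239 and 381, and the row 4358. Most of that row was thus assigned to other forms, so its rank may not be that of Lrrtm1.

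Within the kinase family the order per kilobase was Camk2b, Camk2g, Camk2d and Camk2a in both wild-type groups. Camk2b, whose subunit binds actin, stood at 873 ± 192 per kilobase in littermates of Dp(16)1Yey/+ (SD, n = 4). Camk2g followed at 400.5 ± 118, Camk2d at 88.5 ± 45.7 and Camk2a at 75.2 ± 51.0 per kilobase. The libraries of Camk2d and Camk2a overlapped, so their order is within the spread, whereas Camk2b lay above Camk2g in every one of these libraries. Camk2a is the subunit known for its dominance in the adult forebrain.

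Among scaffolds, Dlg2 was the highest DLG gene per kilobase, at 618 ± 91.4 (SD, n = 3) and 472 ± 123 (SD, n = 4) in the 2 wild-type groups. Dlg4, which encodes the main scaffold of the mature density, stood at 95.1 ± 22.2 and 157 ± 82.6 per kilobase. The SHANK genes lay at the lower end, between 21.8 and 47.8 per kilobase in group means, with overlapping ranges for Shank1 and Shank3 in both groups. Homer1, which encodes an adaptor of metabotropic glutamate receptors, stood at 213 ± 21.4 and 173 ± 16.7 per kilobase.

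**Figure D1:**
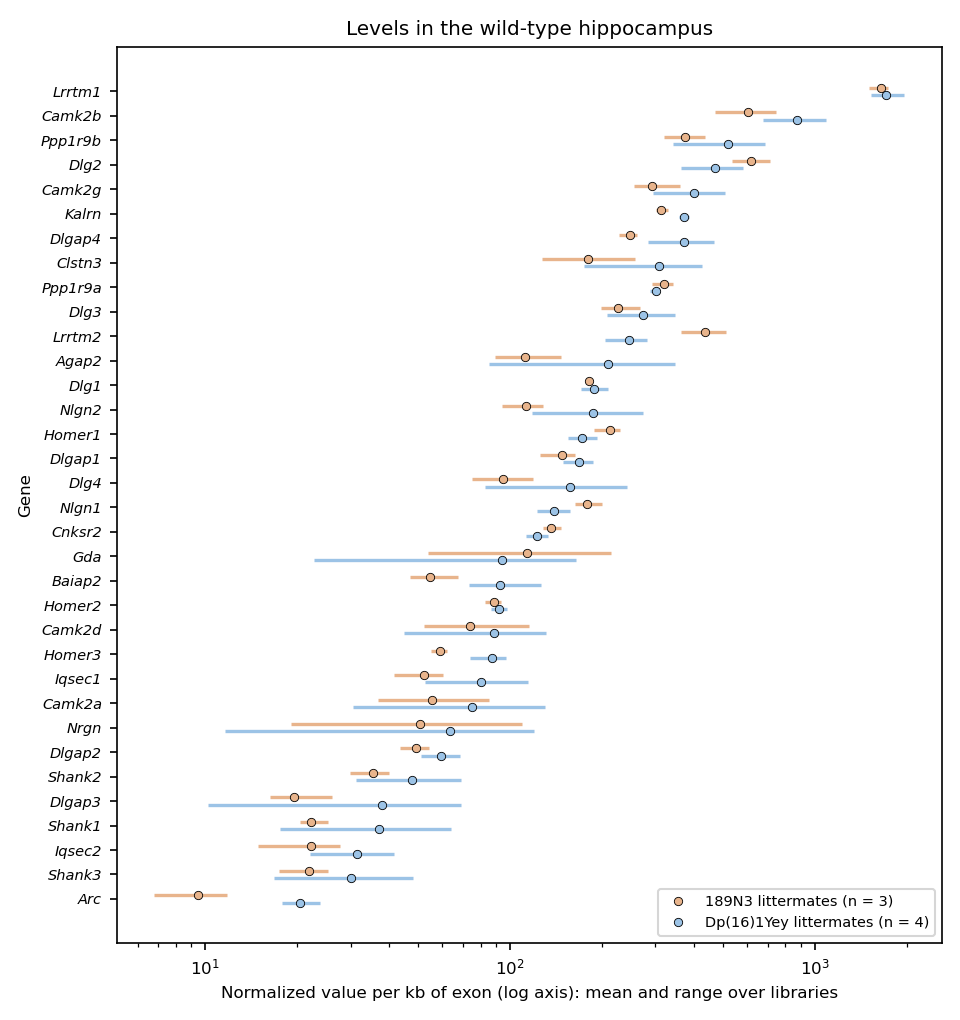
Mean normalized value per kilobase of exon of 34 genes in the wild-type groups, on a log axis, with the range over libraries as a line. The row of Lrrtm1, most of which was assigned to forms not named Lrrtm1, is highest and Arc lowest in both groups. Nrgn, Gda and Dlgap3 have the widest ranges in littermates of Dp(16)1Yey/+.

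No listed gene passed the test in either model. In 189N3, 28 of 34 genes were higher and 6 lower in mean log2 value, at a median log2 difference of 0.27 (range -0.24 to 0.61), whereas 56.2% of the 35899 loci tested were lower and their median was -0.04. In Dp(16)1Yey/+, 28 of 34 genes were lower and 6 higher, with a median of -0.41 (range -1.46 to 0.26), whereas 45.1% of the 36024 loci tested were lower and their median was 0.03. Those 28 include the 5 that the study lists as lower on these same libraries, so the count is not independent of that choice. Over loci with a gene name, 41.3% of 14836 were lower in 189N3 and 57.2% of 14721 in Dp(16)1Yey/+, with medians of 0.04 and -0.05. Named loci thus leaned the same way as the listed genes, by less.

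With limma, 0 of 34 genes had an adjusted p under 0.05 in either model, as did 0.0% of all loci in both comparisons, and 0 of 34 had an unadjusted p under 0.05. At that unadjusted level 0.825% of all loci were higher and 1.05% lower in 189N3, and 1.71% were higher and 1.82% lower in Dp(16)1Yey/+. The quasi-likelihood test of edgeR and DESeq2, run on fragments recovered from the values, also called 0 of the 34 genes in either model. Over all loci edgeR called 0 in either, and DESeq2 called 15 in 189N3 and 8 in Dp(16)1Yey/+, or 0.0418% and 0.0222%. The test of the difference between the models called 0 of the 34 genes and 0.0% of 36045 loci. Its smallest p among the listed genes was that of Camk2b, with a difference of log2 fold changes of -1.21 ± 0.58 (SE) and an adjusted p of 0.922 by limma.

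The signs rest on few libraries. Without 189N3 replicate 2, 16 of 34 genes were lower in 189N3 and the median log2 fold change was 0.04. Without littermate replicates 2 and 3, 14 of 34 genes were lower in Dp(16)1Yey/+ and the median was 0.05, and without littermate replicates 0 and 1 it was -0.70. With each alike pair averaged to 1 sample, 28 of 34 genes were lower and the median was -0.41, the standard error of Nrgn rose from 0.87 to 0.96 and that of Arc from 0.32 to 0.425, and 0 genes were called by limma. Leaving out these pairs was chosen after the values were seen. Leaving out Dp(16)1Yey/+ replicate 1, the library at a ratio of 1.10, gave 28 of 34 genes lower and a median of -0.23. The log2 fold changes were then -0.68 for Arc, -1.12 for Nrgn, -0.83 for Camk2a and for Dlgap3, -0.61 for Clstn3 and -0.48 for Gda, and that of Camk2b moved from -0.81 to -0.39.

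**Figure D2:**
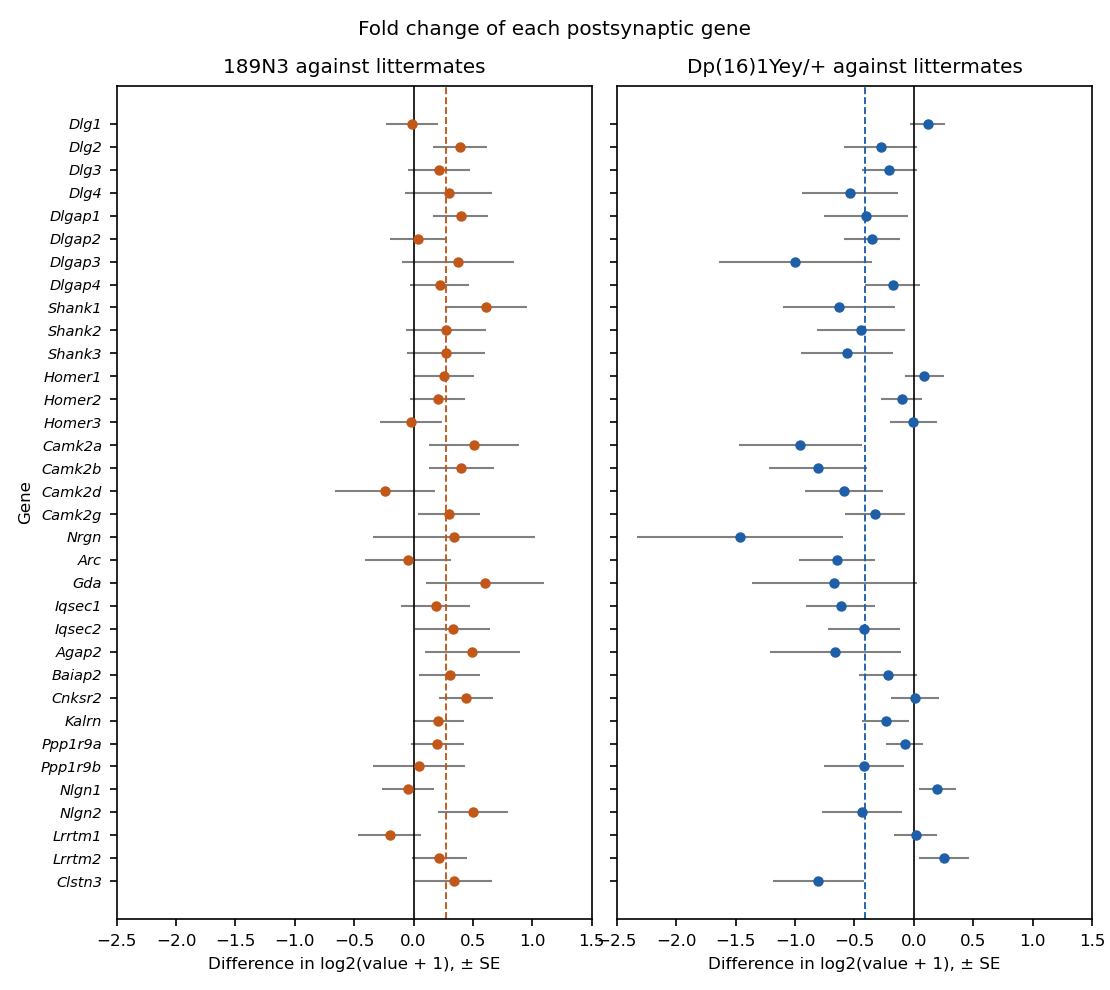
Difference in mean log2(value + 1) between each model and its littermates for 34 genes, with the standard error from limma. Dashed lines are the medians, 0.27 in 189N3 and -0.41 in Dp(16)1Yey/+, and none of the 34 genes passed the test in either panel.

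The genes varied together from library to library, within groups as well as between them. The mean deviation of the 34 genes from their 14-library means, in log2 units, was 0.68 in 189N3 replicate 2, 0.64 and 0.52 in littermate replicates 3 and 2 of Dp(16)1Yey/+, and 0.43 in Dp(16)1Yey/+ replicate 0. It was -0.62 and -0.51 in Dp(16)1Yey/+ replicates 1 and 2, while littermate replicates 0 and 1, at -0.19 and -0.29, lay at the level of Dp(16)1Yey/+ replicate 3, at -0.19. Each Dp(16)1Yey group thus held both high and low libraries.

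Of the 34 genes, 16 had their 4 highest values in exactly those 4 libraries, among them Dlg3, Dlg4, all 4 DLGAP genes, Shank2, Shank3, Camk2b, Camk2g and Clstn3. As these libraries are also the 4 with the highest mean of the same genes, the count of 16 partly follows from that mean. The share over all loci is not given here. Another 4 genes, Camk2a, Camk2d, Nrgn and Gda, had littermate replicate 1 of 189N3 among their 4 highest in place of Dp(16)1Yey/+ replicate 0. As many as 25 genes had 1 of their 4 lowest values in Dp(16)1Yey/+ replicate 1 and 20 in replicate 2, but also 19 in 189N3 replicate 1 and 18 in littermate replicate 2 of 189N3. Low values were therefore not confined to one genotype.

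A few genes ran against the rest. Lrrtm1 had a Pearson correlation of -0.78 and a Spearman correlation of -0.77 with the mean of the other standardized genes over the 14 libraries, which share 1 normalization. Dlg1 stood at -0.48 and -0.45, and Nlgn1 at -0.30 and -0.23. Lrrtm1 was lowest, at 2363, in 189N3 replicate 2, where most listed genes were highest. These values of Lrrtm1 are those of its row, most of which was assigned to forms not named Lrrtm1. They may therefore not describe Lrrtm1 itself. Arc was close to unrelated, at 0.15 and 0.10. Shank2, Shank3 and Agap2 were the closest to the rest, each with a Pearson correlation of 0.96.

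The 5 named genes outside the list with the pattern most like its mean, of 14758 compared, were Fbxo41, Epb4.1l1, Bean1, Chd5 and Ncdn. Their Pearson correlations were 0.99, 0.99, 0.99, 0.98 and 0.98 over the 14 libraries, and at least 0.976 within each model's own libraries. These genes were picked for their likeness, and the values are a description.

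**Figure D3:**
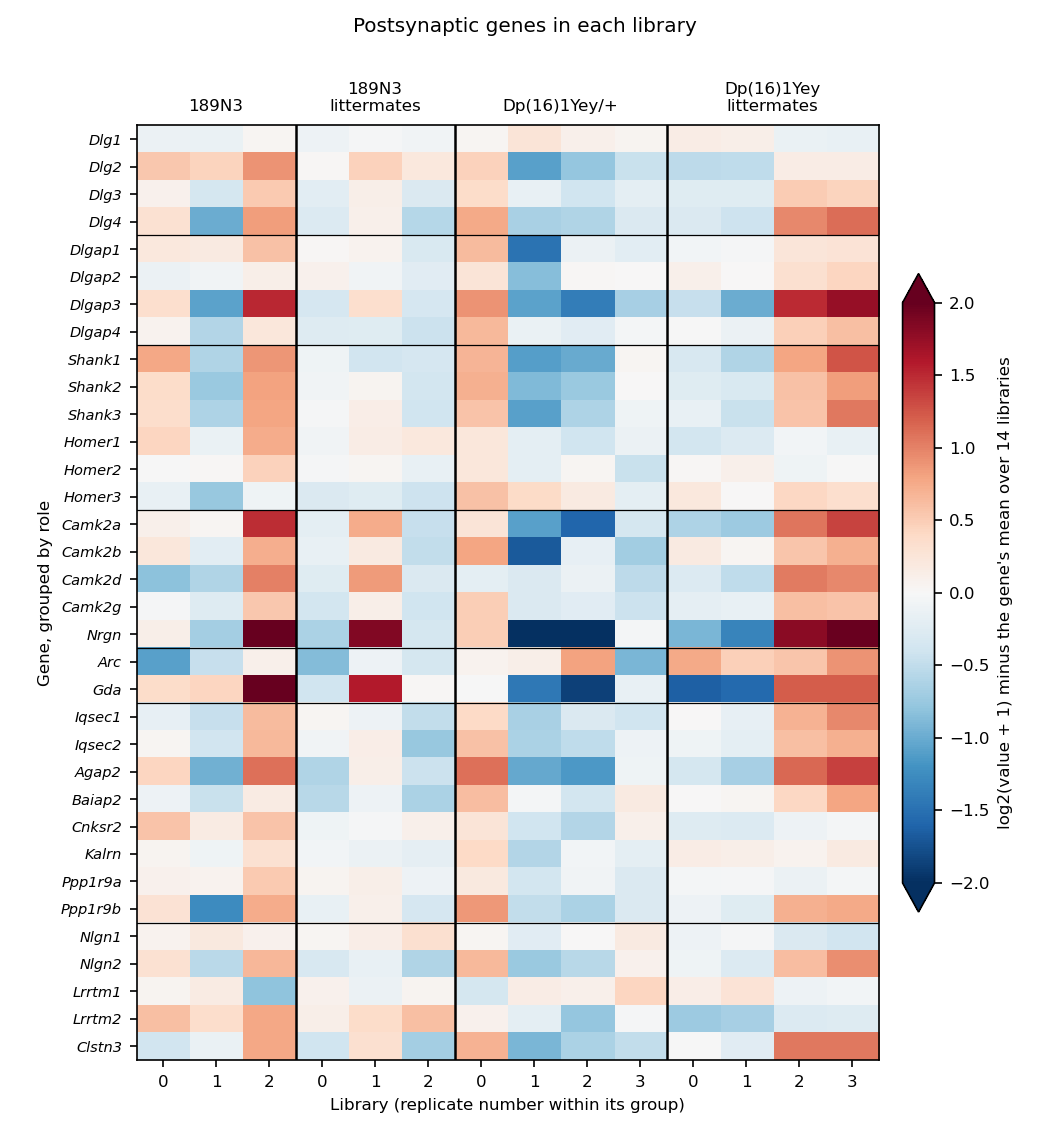
Deviation of log2(value + 1) from each gene's mean over the 14 libraries, for 34 genes by role (rows) and 14 libraries by group and replicate number (columns). Most rows are red in 189N3 replicate 2, Dp(16)1Yey/+ replicate 0 and littermate replicates 2 and 3 of Dp(16)1Yey/+, and values beyond 2 are drawn at the end of the scale.

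The range within wild-type littermates was wider in one line than in the other. It was taken over 4 libraries against 3, and a range grows with the number of libraries. In littermates of Dp(16)1Yey/+, 13 of 34 genes spanned more than 1 log2 unit between their lowest and highest library, which is 38.2%, against 8.53% of loci with a mean log2 level of at least 100 normalized values. In littermates of 189N3 it was 5 of 34, or 14.7%, against 2.21% of loci, and the median range was 0.45 log2 units against 0.76. Over those loci the median range was likewise smaller in littermates of 189N3, at 0.325 against 0.475. Within 189N3 and Dp(16)1Yey/+ themselves the listed genes had wider median ranges, at 0.952 and 1.169. There 47.1% and 55.9% of them spanned more than 1 log2 unit, against 23.7% and 23.3% of those loci. In littermates of Dp(16)1Yey/+ the ratio of highest to lowest library reached 10.3 for Nrgn, 7.27 for Gda and 6.77 for Dlgap3, and the median over the 34 genes was 1.70. For 30 of 34 genes that range was larger than the gene's own log2 fold change in Dp(16)1Yey/+, and for 27 of 34 it was so in the 189N3 line. A range spans the extremes of a group while a fold change compares means, so high counts are likely for any genes without a large difference. The share over all loci is not given here, and nothing particular to the listed genes is read from these counts.

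Striatal markers moved with the listed genes in some libraries and not in others. The mean deviation of 12 striatal markers was 1.68 and 1.75 in littermate replicates 2 and 3 of Dp(16)1Yey/+, 1.04 in 189N3 replicate 2, and -1.19 and -0.84 in littermate replicates 0 and 1. In Dp(16)1Yey/+ replicate 1, where the listed genes were lowest of all 14 libraries at -0.62, these markers were at 0.30. Their summed value ran from 2768 to 3457 in littermates of 189N3 and 2931 to 5108 in 189N3, and from 2979 to 5930 in littermates of Dp(16)1Yey/+ and 2941 to 4380 in Dp(16)1Yey/+. Of 11 striatal markers tested, 8 were higher in 189N3 and 10 lower in Dp(16)1Yey/+, with 0 called by limma and 1 and 0 at an unadjusted p under 0.05. The 12 markers did not spread alike. Drd2, a defining receptor of striatal neurons, ran from 1.73 to 84.9 over the libraries, and its low end rests on few fragments. Drd1 ran from 64.3 to 383, Pde10a from 1584 to 3228 and Rgs9 from 352 to 617. In Dp(16)1Yey/+ the log2 fold change was -0.415 ± 0.915 for Drd2 and 0.21 ± 0.614 for Drd1 (SE). The part of the striatal markers in the values of the listed genes was not tested.

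The 8 neuronal markers were all higher in 189N3, at a median log2 difference of 0.21, and 5 of 8 were lower in Dp(16)1Yey/+, with a median of -0.15. Their mean deviation was 0.715 in 189N3 replicate 2 and 0.322 in Dp(16)1Yey/+ replicate 0. In littermate replicates 2 and 3 of Dp(16)1Yey/+ it was 0.258 and 0.296, and in replicates 0 and 1 -0.34 and -0.381. In Dp(16)1Yey/+ replicates 1 and 2, where the listed genes were low, it was -0.47 and -0.30. All 7 glial markers were higher in 189N3 and all lower in Dp(16)1Yey/+, with medians of 0.27 and -0.50. All 6 red cell genes and all 8 skin, muscle and connective tissue genes tested were lower in 189N3, with medians of -1.32 and -1.36, and all 6 and 7 tested were higher in Dp(16)1Yey/+, with medians of 1.23 and 1.39. None of these genes was called by limma, and 6 red cell and 7 skin, muscle and connective tissue genes had an unadjusted p under 0.05 in 189N3, against 1 and 2 in Dp(16)1Yey/+. The summed red cell value was between 33976 and 54440 in littermates of 189N3 and between 13935 and 22232 in 189N3, with no overlap. Among Dp(16)1Yey/+ libraries it ran from 6152 to 48733, highest in replicate 1, and from 4586 to 17218 in littermates. Of 8 neocortical markers, all were higher in 189N3 (median 0.37, 3 at an unadjusted p under 0.05) and 3 lower in Dp(16)1Yey/+ (median 0.08). Of 10 progenitor markers, 9 were lower in 189N3 (median -0.15) and 4 lower in Dp(16)1Yey/+ (median 0.04). The hippocampal markers Prox1 and Zbtb20 were at 161 and 1789 or more in every library, and all 6 markers of that list were lower in Dp(16)1Yey/+ (median -0.32), against 3 of 6 in 189N3. The part of any of these lists in the values of the listed genes was not tested.

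**Figure D4:**
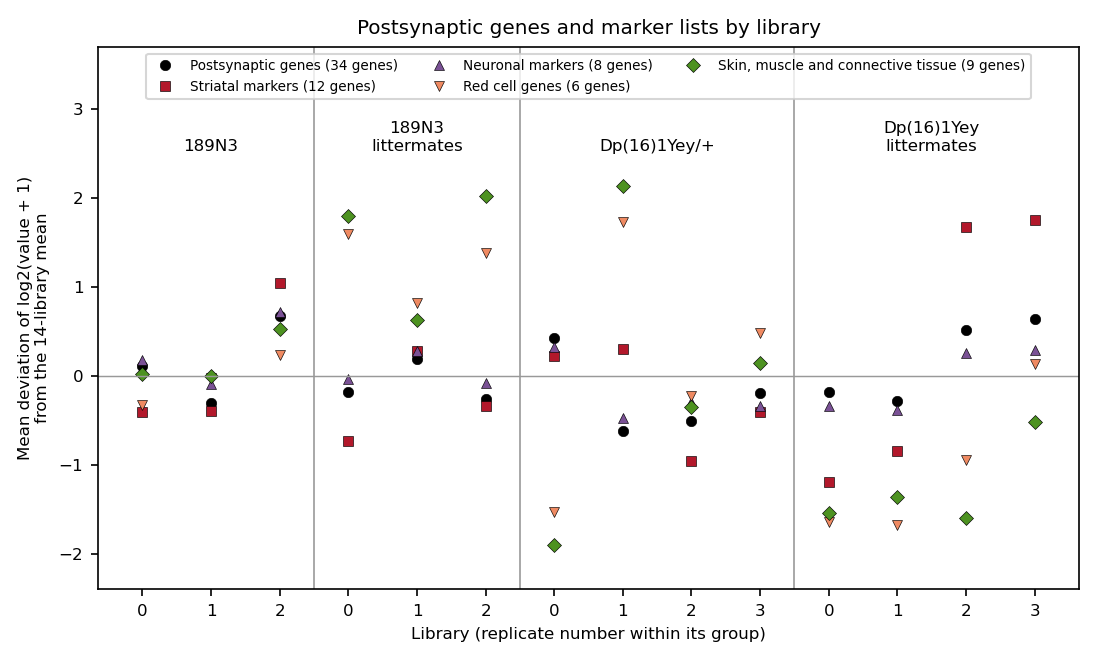
Mean deviation of log2(value + 1) from the 14-library mean for the listed genes and 4 marker lists, in each library by group and replicate number. Striatal markers are highest in littermate replicates 2 and 3 of Dp(16)1Yey/+ and in 189N3 replicate 2, where the listed genes are also high. Neuronal markers are above their mean in these libraries too. Red cell genes are highest in littermates of 189N3 and Dp(16)1Yey/+ replicate 1.

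Arc is given in every library, with the 5 listed genes that the study names as lower in Dp(16)1Yey/+. The study called them at a false discovery rate under 0.05 after its Cufflinks pipeline, whereas limma, used here, called none. As the study chose those 5 on these libraries, their direction is not independent evidence. Arc was measured at 17.8, 27.7 and 41.5 in 189N3 replicates 0 to 2 and at 20.8, 36.1 and 30.2 in littermates. The groups overlapped throughout, and the log2 fold change was -0.05 ± 0.36 (SE; adjusted p = 1.00, limma; exact permutation p = 0.90, two-sided). Arc stood at 40.5, 42.3, 68.4 and 20.1 in Dp(16)1Yey/+ replicates 0 to 3, against 65.9, 54.4, 57.2 and 72.8 in littermates. Replicates 0, 1 and 3 lay below all 4 littermates and replicate 2 within them. Its difference was -0.65 ± 0.32 log2 units (SE), which did not pass the test (adjusted p = 0.909, limma; exact permutation p = 0.114, two-sided).

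The immediate early genes that rise with Arc on neuronal activity were low as well, with a sum over 8 genes between 108 and 199 in every library. Of 6 tested, 5 were lower in Dp(16)1Yey/+, with a median of -0.35, none called by limma. Npas4, an activity-dependent transcription factor, was the one with an unadjusted p under 0.05 (log2 fold change -1.64 ± 0.60, SE; adjusted p = 0.909, limma). It ran from 1.18 to 11.9 in Dp(16)1Yey/+ and from 6.93 to 25.3 in littermates, so its groups overlapped.

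Nrgn encodes neurogranin, which holds calmodulin at low calcium and is abundant in adult forebrain dendrites. It stood at 61.3, 9.40, 6.12 and 42.3 in Dp(16)1Yey/+ replicates 0 to 3 and at 22.7, 16.8, 154 and 174 in littermates. Replicates 1 and 2 lay below every littermate, while replicates 0 and 3 lay above littermate replicates 0 and 1. Its log2 fold change of -1.46 ± 0.87 (SE) was the lowest of the 34 genes and did not pass the test (adjusted p = 0.909, limma; exact permutation p = 0.257, two-sided). In 189N3 it stood at 47.4, 26.9 and 239.7 against 27.7, 159 and 33.8, with 1 high library in each group.

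Gda encodes a guanine deaminase, also called cypin, that binds the DLG4 scaffold and acts on dendrite branching. Dp(16)1Yey/+ libraries stood at 393, 147, 108 and 356 for Gda, and littermates at 127, 134, 921 and 918. Replicates 0, 1 and 3 lay between the 2 pairs of littermates and replicate 2 below all 4. Its log2 fold change was -0.67 ± 0.70 (SE; adjusted p = 0.909, limma; exact permutation p = 0.514, two-sided). In 189N3 values were 511, 534 and 1857, and in littermates 299.8, 1198 and 404, so replicate 2 of the first and replicate 1 of the second were high. A log2 fold change of 0.60 ± 0.50 (SE) was within that spread (adjusted p = 1.00, limma).

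Camk2a encodes the alpha subunit of the kinase, a calcium sensor of long-term potentiation. It stood at 346, 135, 94.9 and 226 in Dp(16)1Yey/+ and at 188, 173, 603 and 739 in littermates. Replicates 1 and 2 lay below all littermates and the others between the littermate pairs. Camk2a had a log2 fold change of -0.96 ± 0.52 (SE; adjusted p = 0.909, limma; exact permutation p = 0.229, two-sided). In 189N3 it was measured at 309, 296 and 800.2, against 250.4, 483 and 209 in littermates, and the log2 fold change was 0.51 ± 0.38 (SE; adjusted p = 1.00, limma).

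Dlgap3 encodes a DLGAP scaffold best known from the striatum. Dp(16)1Yey/+ libraries stood at 168, 42.3, 33.7 and 56.4 and littermates at 64.9, 44.5, 254 and 301. Replicate 0 lay above littermate replicates 0 and 1, and replicates 1 and 2 below all 4. Dlgap3 had a log2 fold change of -0.997 ± 0.642 (SE; adjusted p = 0.909, limma; exact permutation p = 0.20, two-sided). In 189N3 the values of 114, 42.4 and 257 spread on both sides of the littermates at 71.0, 114 and 71.3 (log2 fold change 0.37 ± 0.47, SE; adjusted p = 1.00, limma).

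Clstn3 encodes calsyntenin-3, a neurexin-binding adhesion protein. It stood at 1363, 443, 538 and 592 in Dp(16)1Yey/+ and in littermates at 837, 712, 1732 and 1733. Replicates 1, 2 and 3 lay below every littermate and replicate 0 within them. Clstn3 had a log2 fold change of -0.80 ± 0.38 (SE; adjusted p = 0.909, limma; exact permutation p = 0.171, two-sided). In 189N3 the values were 641, 760.3 and 1428, against 632, 1045 and 521 in littermates, with a log2 fold change of 0.34 ± 0.32 (SE; adjusted p = 1.00, limma). The smallest p that exact permutation can give is 0.10 for 3 against 3 libraries and 0.0286 for 4 against 4.

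**Figure D5:**
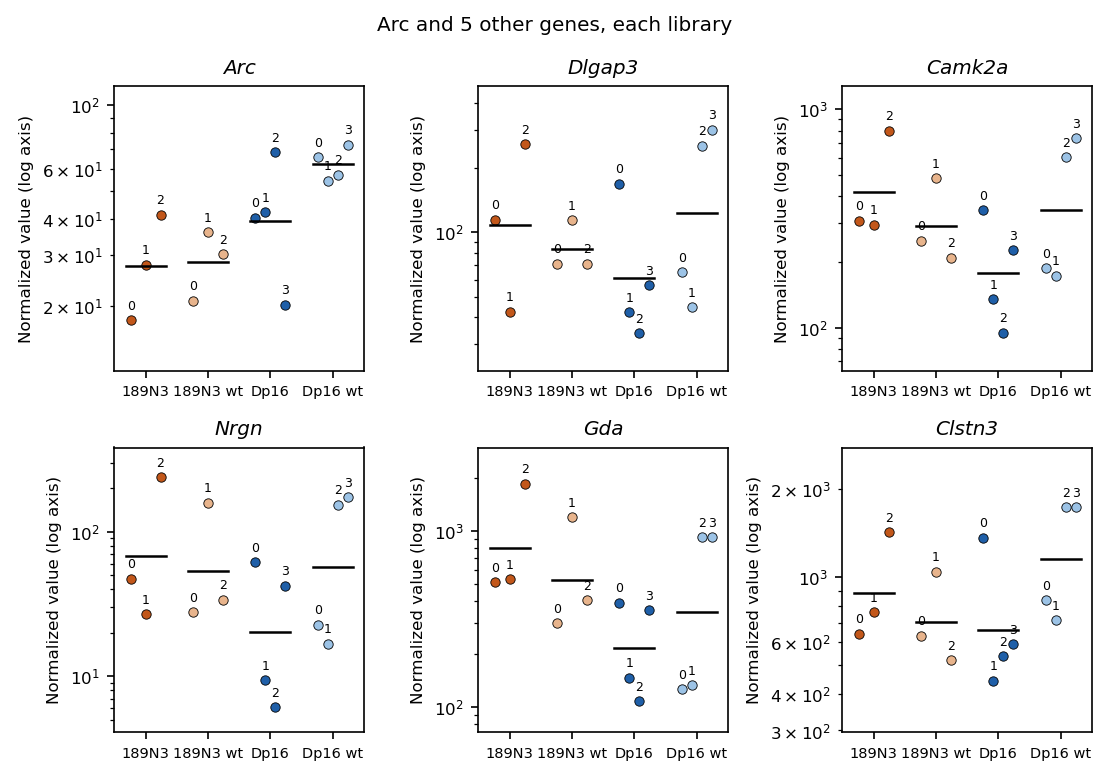
Normalized value of 6 genes in each library, on log axes, with replicate numbers beside the points and a line at the mean on the log2(value + 1) scale. Nrgn, Gda, Camk2a, Dlgap3 and Clstn3 are high in littermate replicates 2 and 3 of Dp(16)1Yey/+ and in 189N3 replicate 2, whereas Arc spans 17.8 to 72.8 over all libraries.

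Promoters are shown for Nrgn, Dlgap3 and Gda, the genes with the widest range in littermates of Dp(16)1Yey/+. Each had littermate replicates 2 and 3 of Dp(16)1Yey/+ and 189N3 replicate 2 among its highest libraries. Whether they moved together more than other listed genes was not tested. Each window runs from 250 bases before to 50 after a RefSeq start (GRCm38.p6) and is read 5′ to 3′ on the gene's strand, with matches to the E-box CANNTG in capitals. The windows are at chr9:37552696-37552995 (minus strand) for Nrgn, chr4:127172630-127172929 (plus strand) for Dlgap3 and chr19:21472612-21472911 (minus strand) for Gda. Those of Dlgap3 and Gda lie inside these genes, whose outermost GENCODE starts are at 127169204 and 21473445.
Nrgn: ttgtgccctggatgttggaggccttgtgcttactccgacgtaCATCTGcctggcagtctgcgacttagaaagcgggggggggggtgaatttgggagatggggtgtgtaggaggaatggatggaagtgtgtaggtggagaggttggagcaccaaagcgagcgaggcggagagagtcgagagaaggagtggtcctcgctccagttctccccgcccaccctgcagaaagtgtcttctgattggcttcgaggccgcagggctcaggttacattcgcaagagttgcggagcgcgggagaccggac
Dlgap3: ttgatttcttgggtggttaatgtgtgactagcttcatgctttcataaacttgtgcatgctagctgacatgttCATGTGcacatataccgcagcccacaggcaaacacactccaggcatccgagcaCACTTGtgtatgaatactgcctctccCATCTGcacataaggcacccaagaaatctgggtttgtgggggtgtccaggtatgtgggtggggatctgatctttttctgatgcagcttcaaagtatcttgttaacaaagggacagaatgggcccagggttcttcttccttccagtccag
Gda: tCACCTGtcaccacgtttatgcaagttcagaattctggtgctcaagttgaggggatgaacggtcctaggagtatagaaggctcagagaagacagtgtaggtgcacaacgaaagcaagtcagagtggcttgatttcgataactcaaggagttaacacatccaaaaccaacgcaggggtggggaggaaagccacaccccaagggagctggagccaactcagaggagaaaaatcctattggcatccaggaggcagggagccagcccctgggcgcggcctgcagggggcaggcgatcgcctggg

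The windows held 1, 3 and 1 E-box matches, in the order printed. Over both strands, CANNTG was found in 30 of 44 windows of 27 listed genes with a window, which is 68.2%, and in 72.3% of 32851 mouse windows. Windows on chromosome 18, where Camk2a and Lrrtm2 lie, were left out of all these counts. The GC box GGGCGG was in 52.3% of the windows of listed genes and 35.7% of all, and of the 3 printed only Nrgn held it. The TATA box TATAAA was in 9.09% and 13.6%, and in none of the 3. The cyclic AMP response element TGACGTCA was in 1 window of a listed gene, that of Clstn3, or 2.27%, and in 1.79% of all. These are matches of letters and not shown to be sites.

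The scaffold families had the same sign of their medians. All 4 DLGAP genes were higher in 189N3 (median log2 fold change 0.30) and lower in Dp(16)1Yey/+ (median -0.38), though none passed the test. Dlgap1 was one of 2 listed genes whose groups did not overlap in 189N3, at 1686, 1642 and 2175 against 1473, 1524 and 1172 in littermates. Its log2 fold change was 0.40 ± 0.23 (SE; adjusted p = 1.00, limma; exact permutation p = 0.10, two-sided, the smallest possible). For 2 of 34 genes the share is 5.88%, and 4.98% of all loci had groups that did not overlap. None of the 34 did in Dp(16)1Yey/+, against 2.45% of all loci.

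Of 4 DLG genes, 3 were higher in 189N3 and lower in Dp(16)1Yey/+, with medians of 0.25 and -0.24, and Dlg1, an early and widely expressed member, ran the other way at -0.01 and 0.12. Dlg2 was measured at 6715, 6339 and 8623 in 189N3 and at 4738, 6352 and 5385 in littermates. Replicates 0 and 2 of 189N3 lay above all littermates and replicate 1 just below the highest of them. Dlg2 had a log2 fold change of 0.39 ± 0.23 (SE; adjusted p = 1.00, limma; exact permutation p = 0.20, two-sided).

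Of 6 SHANK and HOMER genes, 5 were higher in 189N3 and 5 lower in Dp(16)1Yey/+, with medians of 0.26 and -0.27. The SHANK genes had the larger differences, and Homer1, Homer2 and Homer3 stayed between -0.10 and 0.09 in Dp(16)1Yey/+. Shank1 stood at 447, 172 and 485 in 189N3 and 248, 201 and 208 in littermates. Replicates 0 and 2 were high and replicate 1 was below every littermate. Its log2 fold change of 0.61 ± 0.34 (SE) was the highest of the 34 in 189N3 (adjusted p = 1.00, limma; exact permutation p = 0.40, two-sided). Homer3 overlaps Ddx49 on the other strand, and Shank1 overlaps 1700008O03Rik there. The libraries were stranded, but whether counting used strand is not given in the sources used here.

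All 5 genes of the kinase group were lower in Dp(16)1Yey/+, at a median log2 difference of -0.81, the lowest of the groups, and 4 of 5 were higher in 189N3, with a median of 0.34. Camk2b stood at 5089.7, 919, 2633 and 1811 in Dp(16)1Yey/+ and at 3321, 3004, 4325 and 4826 in littermates. Replicate 0 was above all littermates and the other 3 below all of them. Its log2 fold change was -0.81 ± 0.41 (SE; adjusted p = 0.909, limma; exact permutation p = 0.20, two-sided). In 189N3 it stood at 3422, 2542 and 4835 against 2644, 3312 and 2077 (log2 fold change 0.40 ± 0.27, SE; adjusted p = 1.00, limma).

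Camk2d, the delta subunit, was nearly bimodal over libraries. It stood at 452, 383, 1119 and 1059.8 in littermates of Dp(16)1Yey/+, and in Dp(16)1Yey/+ at 475, 444, 500.0 and 380.4. All 4 Dp(16)1Yey/+ libraries lay at the level of littermate replicates 0 and 1. Camk2d had a log2 fold change of -0.59 ± 0.33 (SE; adjusted p = 0.909, limma; exact permutation p = 0.314, two-sided). In 189N3 it stood at 307, 358 and 1099 and in littermates at 458, 986 and 443, with 1 high library in each.

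All 8 regulators of small GTPases and actin were higher in 189N3, with a median of 0.26, and 7 of 8 were lower in Dp(16)1Yey/+, with a median of -0.33. Cnksr2, a synaptic scaffold protein, had the smallest p in 189N3, at 1436, 1085 and 1438 against 907, 951 and 1037. The groups did not overlap, and the log2 fold change was 0.44 ± 0.23 (SE; adjusted p = 1.00, limma; exact permutation p = 0.10, two-sided, the smallest possible). That of Cnksr2 in Dp(16)1Yey/+ was 0.01 ± 0.20 (SE).

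Iqsec1, an exchange factor of ARF GTPases that act in receptor recycling, had the smallest p in Dp(16)1Yey/+. It stood at 849, 410.2, 527 and 490.1 in Dp(16)1Yey/+ and at 653, 577, 1052 and 1258 in littermates. Replicate 0 lay among the littermates and the other 3 below all of them. Iqsec1 had a log2 fold change of -0.62 ± 0.29 (SE; unadjusted p = 0.0548 and adjusted p = 0.909, limma; exact permutation p = 0.143, two-sided). Agap2, an ARF GTPase-activating protein, had the lowest value of this group in Dp(16)1Yey/+ at -0.66 ± 0.55 (SE) and the highest in 189N3 at 0.49 ± 0.40 (SE). Iqsec2, Baiap2, Kalrn, Ppp1r9a and Ppp1r9b lay between -0.42 and -0.08 in Dp(16)1Yey/+.

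The adhesion molecules split. Clstn3 and Nlgn2, a neuroligin of inhibitory synapses, were lower in Dp(16)1Yey/+ in mean log2 value, and Nlgn1, Lrrtm1 and Lrrtm2 were at 0.20, 0.02 and 0.26. Nlgn2 stood at 1013, 567 and 1302 in 189N3 and at 659, 738 and 540.1 in littermates. Replicates 0 and 2 lay above all littermates and replicate 1 among them. Its log2 fold change was 0.50 ± 0.29 (SE; adjusted p = 1.00, limma; exact permutation p = 0.30, two-sided). That of Nlgn2 in Dp(16)1Yey/+ was -0.43 ± 0.34 (SE). Lrrtm1 and Lrrtm2 lie inside Ctnna2 and Ctnna1, on the other strand. The fold change of Lrrtm1 is that of its row, most of which was assigned to forms not named Lrrtm1.

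Nlgn3 was read from its isoform estimate, which Cufflinks divides from the fragments of the shared locus. It was 885 ± 262 in 189N3 and 601 ± 191 in littermates (SD, n = 3), and 687 ± 408 in Dp(16)1Yey/+ and 1034 ± 366 in littermates (SD, n = 4). The log2 fold changes of 0.57 ± 0.34 and -0.69 ± 0.43 (SE) did not pass the test over all isoforms (adjusted p = 1.00 and 0.945, limma).

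Over isoforms, 146 of the listed genes were tested in 189N3 and 142 in Dp(16)1Yey/+, and 0 were called by limma in either. At an unadjusted p under 0.05 there were 9 in 189N3, or 6.16%, against 2.56% of 60141 isoforms, and 5 in Dp(16)1Yey/+, or 3.52%, against 3.48% of 60652. Of all isoforms, 0.0366% and 0.0214% had an adjusted p under 0.05. The smallest adjusted p was 0.0956, for a form of Iqsec2 at 64.0 ± 16.1 in 189N3 and 0.0852 ± 0.0867 in littermates (SD, n = 3). Another form of Iqsec2 moved the other way, from 91.0 ± 8.39 in littermates to 16.3 ± 11.4 in 189N3, while the gene as a whole had a log2 fold change of 0.33 ± 0.31 (SE). Such estimates divide the same fragments between forms.

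Other genes of the same machinery were measured for comparison. Of 33 other postsynaptic genes measured, 29 were higher in 189N3 (median log2 fold change 0.23) and 23 lower in Dp(16)1Yey/+ (median -0.37), with 0 called by limma and 0 at an unadjusted p under 0.05 in either. Tiam1, Kcnj6, Dscam, Itsn1 and Grik1 among them lie in the duplicated region, and 4 of these 5 were higher in Dp(16)1Yey/+, with a median of only 0.036. Tiam1, Grik1, Itsn1 and Dscam were at 0.004 ± 0.319, 0.036 ± 0.359, 0.125 ± 0.258 and 0.199 ± 0.319 (SE), each within its error, and Kcnj6 at -0.73 ± 0.664 (SE). Outside the duplicated region, 22 of 28 were lower, with a median of -0.40. Grin1, the obligatory subunit of NMDA receptors, was at 0.28 ± 0.28 (SE) in 189N3 and -0.73 ± 0.36 (SE) in Dp(16)1Yey/+. Grin2a, a subunit that rises after birth, was at 0.27 ± 0.29 and -0.82 ± 0.44 (SE). Gria2, a subunit of AMPA receptors, was at 0.17 and 0.29.

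The last set is the portion of a published ARC complex that the study places in its own synaptic network. It has 10 genes, of which 7 are among the 34 already described, and 9 were higher in 189N3 and 9 lower in Dp(16)1Yey/+, with medians of 0.33 and -0.60, and Dlg1 was the exception in both. Its lower genes in Dp(16)1Yey/+ include Camk2a, Dlgap3 and Gda, which the study had listed as lower on these libraries. Among 6 presynaptic partners of the adhesion molecules, 4 were lower in Dp(16)1Yey/+, with a median of -0.37. Ptprf, a receptor phosphatase, was the one with an unadjusted p under 0.05, at -0.52 ± 0.24 (SE; adjusted p = 0.909, limma).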

How the data were processed

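Stranded total RNA libraries, read as paired ends of 100 bases, were made by the authors from embryonic hippocampus. Per the labels and methods they aligned reads to mm10 with TopHat and Bowtie and assembled and quantified them with Cufflinks, corrected for fragment bias and multiply mapped reads; versions are not given in the sources used here. The signal values of the deposited gene table are fragment numbers of each locus scaled by a size factor for each library, and all nonzero values came back as whole fragments. The signal values of the deposited isoform table are Cufflinks estimates on the same scale.

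The deposited map of transcripts to genes had shifted numbers, so each locus was matched to the map locus whose isoforms sum to it in all 14 libraries. In this way 50326 of 59796 loci were matched and 18748 named. Exon lengths came from GENCODE vM21. The listed genes, marker lists and tests were chosen with earlier results of these data known. Values in every library and tests were given for Arc, the 5 genes the study lists and, in each model, the 6 with the smallest unadjusted p; Nlgn3 was left out of these counts.

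Values were taken as log2(value + 1), at a mean of at least 10 over the libraries compared. Each model was tested against its littermates with limma 3.58.1 (R 4.3.3, empirical Bayes with an intensity trend, no covariate), and the difference between models in 1 fit of the 4 groups, with Benjamini-Hochberg adjustment over all loci at 0.05. The value scale made limma the test in place of a count model; edgeR 4.0.16 and DESeq2 1.42.0, on recovered fragments, were alternatives. Scripts were tested on simulated data. Exact two-sided permutation used SciPy. Same-numbered libraries were not paired: the correlation of their deviations from the group means was 0.009, -0.50 and -0.27 in the 189N3 line and -0.58, -0.03, -0.57 and -0.31 in the Dp(16)1Yey line. Fold changes of genes near a mean of 10 are shrunk by the pseudocount of 1.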

Additional observations from a re-analysis of the deposited data

How the results depend on the processing

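No alternative called any of the 34 genes in either model or in the difference between them, by gene or by isoform. The median log2 fold change kept its sign except in Dp(16)1Yey/+ without littermate replicates 2 and 3 (0.05), and ran, with single libraries left out, from 0.04 to 0.47 in 189N3 and -0.64 to -0.23 in Dp(16)1Yey/+. The number of genes lower in 189N3 was 3 with DESeq2 and 2 to 16 with each library left out. In Dp(16)1Yey/+ it was 14 without littermate replicates 2 and 3, an alternative chosen after seeing the data. The causes were not tested.

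In 189N3, the log2 fold change of Arc became 0.031 with quantile normalization and 0.025 with DESeq2. With each library left out it ran from -0.34 to 0.25 for Arc, -0.25 to 1.035 for Dlgap3, -0.56 to 1.12 for Nrgn, -0.008 to 1.195 for Gda and -0.005 to 0.63 for Clstn3. In Dp(16)1Yey/+ without littermate replicates 2 and 3 it was 0.17 for Dlgap3, 0.042 for Nrgn, 0.73 for Gda and 0.10 for Camk2d. With the replicate number as a block, the pairing being unsupported, 72 loci were called in 189N3 and 0 in Dp(16)1Yey/+, none of them listed genes, whose medians were 0.27 and -0.41. Over all loci in 189N3, edgeR called 0 and DESeq2 15. Values of Arc and Nrgn rest on few fragments, which limits their precision.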
